A study of Mus musculus with 6 samples.

Results

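The genes described here are p53, its inhibitors and its target genes, the BCL2 family and the caspases, in lenses of mice carrying a mutant βB2-crystallin. They were chosen as a list of 34 gene symbols, and a probe counted as theirs if its RefSeq accession belonged to one of them; the cell cycle inhibitor gene Cdkn1a was left out. All 34 had at least 1 probe among the 20659 named genes of the array, and 29 passed the filter on dim probes, out of 12782 genes tested. Lenses were taken at 3 months. In the knock-in mice W151C had been introduced, the replacement of tryptophan by cysteine at codon 151 of βB2-crystallin, made with CRISPR/Cas9 in the Crybb2 gene, whose product is one of the main soluble proteins of lens fibres. The knock-in group had 3 arrays, numbered 1, 2 and 4, and the wild type group 3, numbered 1, 2 and 3, each hybridised with Cy3-labelled RNA. Strain, sex, whether the animals carried 1 or both mutant alleles, and how many animals stood behind each array are not stated in the labels.

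p53 is a transcription factor that DNA damage and other stresses activate. Mdm2 and Mdm4 hold it in check, and Mdm2 is itself one of its targets. Other targets arrest growth, or promote cell death through the mitochondrial pathway: BH3-only proteins such as PUMA and NOXA neutralise the pro-survival members of the BCL2 family, BAX and BAK1 then open the outer mitochondrial membrane, and released cytochrome c makes APAF1 assemble the apoptosome, which activates caspase-9. In the lens, fibre cells destroy their nuclei and organelles as they mature and yet persist as cells, while the anterior epithelial layer keeps its nuclei throughout life.

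Each value below is a log2 signal relative to the 75th percentile of its array, so 0 stands for that percentile and a difference of 1 for a 2-fold difference. A gene is called where the adjusted p of limma, a linear model with variances moderated across all genes, is at most 0.05, adjusted by Benjamini-Hochberg over all 12782 genes. The 75th percentile of the raw signal lay between 167 and 201 on the knock-in arrays, and at 142, 120 and 698 on wild type arrays 1, 2 and 3. Arrays with 1 scan time in the file headers were taken as a slide. All knock-in arrays shared 1 slide, wild type arrays 1 and 2 a second slide scanned on the same day, and wild type array 3 lay alone on a further slide scanned on another day, so that slide cannot be told apart from genotype. All 12 lens fibre markers with a probe were well above background on every array, and 7 of them were called lower and none higher; their summed signal, in units of the 75th percentile, was 1490, 1340 and 1310 on knock-in arrays 1, 2 and 4, set against 3320, 3890 and 1240 on wild type arrays 1, 2 and 3. Crybb2 averaged 8.96 ± 0.20 in knock-in and 9.37 ± 1.22 in wild type lenses (SD, n = 3 each), a difference that was not called (adjusted p = 0.625). The summed signal of 11 leukocyte markers ranged from 9.94 to 19.3 times the 75th percentile on the knock-in arrays and from 12.9 to 41.4 times on the wild type arrays, with 2 called higher and 1 lower of 7 tested and Lyz2 not well above background on any array. That of 6 retinal markers was 63.9 on knock-in array 4, against 7.05 and 8.61 on the other knock-in arrays and 5.60 to 12.7 on the wild type arrays, with 1 called higher of 3 tested and Opn1sw not well above background on any array. The part of these marker differences in the results was not tested. In bulk RNA of this kind, fewer cells of a type and less RNA per cell cannot be told apart.

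p53 binds DNA as a tetramer at a pair of half-sites, and promoter windows of 3 members are shown because they hold a match to that pair. The windows are those of RefSeq (build GRCm38.p6), reaching from 250 bases before to 50 bases after a transcription start, each on the strand of its gene. They cover 29 of the 34 members. The p53 response element was searched as a pair of consensus half-sites of 10 bases, each with its central C and G in place, separated by at most 13 bases, with at most 2 mismatches in the pair; the half-site consensus reads alike on both strands. Capitals mark the half-sites. Ccng1 lies at chr11:40755237-40755536 (minus strand), with 1 mismatch and no spacer, Bax at chr7:45466849-45467148 (minus strand), with 2 mismatches and a spacer of 1 base, and Sesn1 at chr10:41887189-41887488 (plus strand), with 2 mismatches and a spacer of 3 bases; a further window of Sesn1, at another start, held no pair.
Ccng1: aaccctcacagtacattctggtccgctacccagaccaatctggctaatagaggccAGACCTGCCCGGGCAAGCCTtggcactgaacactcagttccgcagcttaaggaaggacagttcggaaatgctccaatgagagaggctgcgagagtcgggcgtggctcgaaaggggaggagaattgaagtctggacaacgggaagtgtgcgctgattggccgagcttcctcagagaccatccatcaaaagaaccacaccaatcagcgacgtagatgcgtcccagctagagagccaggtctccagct
Bax: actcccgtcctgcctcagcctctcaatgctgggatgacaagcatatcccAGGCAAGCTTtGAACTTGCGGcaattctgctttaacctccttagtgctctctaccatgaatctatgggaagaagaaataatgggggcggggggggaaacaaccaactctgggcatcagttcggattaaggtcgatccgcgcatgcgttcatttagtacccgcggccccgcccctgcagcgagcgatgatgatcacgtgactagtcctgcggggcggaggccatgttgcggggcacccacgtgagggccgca
Sesn1: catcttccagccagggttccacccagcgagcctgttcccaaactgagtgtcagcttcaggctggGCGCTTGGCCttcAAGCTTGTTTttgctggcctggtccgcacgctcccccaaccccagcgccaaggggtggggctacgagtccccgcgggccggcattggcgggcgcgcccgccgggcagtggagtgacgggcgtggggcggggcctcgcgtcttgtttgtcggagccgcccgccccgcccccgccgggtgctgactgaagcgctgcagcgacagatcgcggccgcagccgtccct

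A pair was present in a window of 5 of the 29 members, Gadd45a and Casp2 included, against 4.71% of the 27018 genes with a window. A match is a description of the sequence and not evidence of binding. The transcripts of the 5 genes did not move one way: Bax and Sesn1 were called lower in knock-in lenses, and Ccng1, Gadd45a and Casp2 were not called. Other p53 targets were a list of genes outside the members, chosen with earlier results of these data known. Among 21 of them with a window, 2 held a pair, Ckap2 and Pml. Ckap2, which encodes a protein of the mitotic spindle, was called higher, at 3.19 (SE 0.26, adjusted p = 0.000434), and Pml was not called, at 0.14 (adjusted p = 0.699); both are named for the pair and not by the rule on p.

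The question put to the arrays was which transcripts differ in lenses whose βB2-crystallin has the substitution. Of the 29 members tested, 7 rose and 4 fell in knock-in lenses. The rises were Phlda3, Trp53inp1, Bcl2l1, Bbc3, Pmaip1, Bid and Apaf1, and the falls were Sesn1, Bcl2, Bax and Fas. Over all genes tested, 25.9% were called, 13.3% higher and 12.6% lower; 51.3% of the calls were higher, and 40.9% where arrays were scaled by their median, a setting with 5 members higher and 2 lower. The arrays of the genotypes did not overlap for 19 members, 13 with the knock-in arrays higher and 6 with them lower, against 45.9% of all genes (22.7% higher and 23.1% lower), and 6 members were called with at least a 2-fold difference, against 14.4% of all genes. The median difference was 0.21 over the members and -0.04 over all genes. Of the called members, Pmaip1 passed the filter only through the knock-in arrays and Bcl2 only through the wild type arrays.

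**Figure D1:**
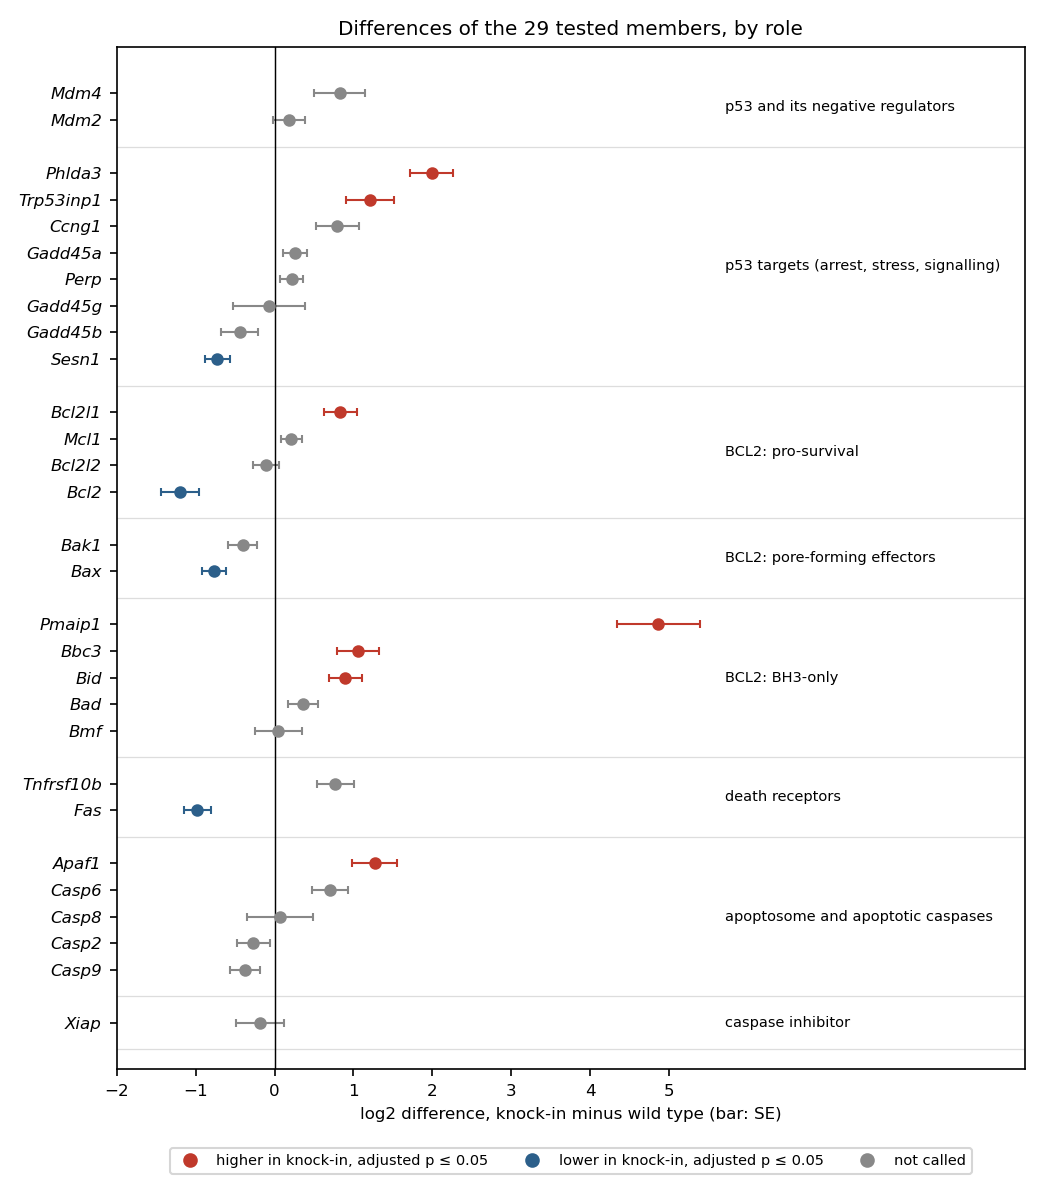
Log2 difference of each of the 29 tested members, knock-in minus wild type (horizontal axis), with its standard error, grouped by role; red and blue mark members called higher and lower in knock-in lenses. Pmaip1 at 4.86 stands far to the right of the rest, and its value is set against wild type signals that were not well above background.

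p53 itself did not pass the filter on dim probes. The Trp53 probe was well above background on none of the knock-in arrays and on 2 of the 3 wild type arrays. It gave -4.56, -5.48 and -5.49 on knock-in arrays 1, 2 and 4 and -3.37, -3.85 and -3.86 on wild type arrays 1, 2 and 3, the knock-in signals lying below all wild type signals. Without the filter Trp53 was called lower, at -1.48 (SE 0.32, adjusted p = 0.0372), a difference set against knock-in signals that were not well above background.

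Mdm2, the ubiquitin ligase that degrades p53 and is induced by it, had 3.44, 3.38 and 3.90 in the knock-in lenses, against 3.24, 3.32 and 3.60 on the wild type arrays. Those ranges overlapped, and the difference of 0.18 (SE 0.20, adjusted p = 0.538) was not called. Mdm4, which blocks p53 without degrading it by itself, had -2.48, -2.23 and -1.98 on the knock-in arrays and -2.56, -2.85 and -3.76 on the wild type arrays. The groups of Mdm4 were separate, by little between knock-in array 1 and wild type array 1, and differed by 0.82 (SE 0.32, adjusted p = 0.105), which was not called. Mdm4 was dim, with 2 of 3 knock-in arrays well above background, and its second probe differed by 0.42.

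Among p53 targets linked to growth arrest, stress and signalling, 2 rose, 1 fell and 5 were not called of 8 tested. Phlda3, an inhibitor of the kinase AKT, had signals of 4.55, 4.55 and 4.37 on knock-in arrays 1, 2 and 4, set against 2.22, 2.16 and 3.12 on wild type arrays 1, 2 and 3. Every knock-in array lay more than a 2-fold step above every wild type array, wild type array 3 being the nearest. The rise was 1.99 (SE 0.27, adjusted p = 0.00323), and it was called under all 16 alternative settings, with adjusted p up to 0.0319. Trp53inp1, a stress protein that promotes p53 phosphorylation and autophagy, had 1.72, 1.79 and 2.07 on the knock-in arrays and 0.33, 0.28 and 1.33 on the wild type arrays. Its groups were separate, with wild type array 3 again nearest to the knock-in arrays, and the rise was 1.21 (SE 0.30, adjusted p = 0.0270). A dimmer second probe of Trp53inp1 gave 0.26 and was not called.

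Sesn1, a sestrin that restrains mTORC1 and protects against oxidants, went the other way. Its signals were 1.96, 2.02 and 2.02 on the knock-in arrays, set against 2.62, 2.62 and 2.94 on the wild type arrays, with the knock-in arrays close together and below all wild type arrays. Sesn1 fell by 0.73 log2 units (SE 0.16, adjusted p = 0.0171). Ccng1, cyclin G1, whose promoter pair is printed above, had 5.22, 4.97 and 4.71 on the knock-in arrays and 3.95, 3.84 and 4.72 on the wild type arrays. Wild type array 3 overlapped with the knock-in range, and the difference of 0.80 (SE 0.27, adjusted p = 0.0714) was not called, whereas without that array it was 1.07 (adjusted p = 0.00553). 

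The GADD45 proteins bind cell cycle and stress kinase regulators. Gadd45a had 4.63, 4.42 and 4.51 on the knock-in arrays and 4.35, 4.29 and 4.14 on the wild type arrays, separate groups with a difference of 0.26 (adjusted p = 0.246). Gadd45b had 2.88, 2.77 and 3.08 on the knock-in arrays and 3.62, 3.54 and 2.89 on the wild type arrays, a difference of -0.44 (adjusted p = 0.201). Gadd45g had 3.07, 2.92 and 2.97 on the knock-in arrays and 3.83, 3.41 and 1.93 on the wild type arrays, a difference of -0.07 (adjusted p = 0.925). None of the 3 was called, and wild type array 3 lay apart from the other wild type arrays for Gadd45b and Gadd45g. Without wild type array 3, Gadd45b and Gadd45g were called lower, at -0.67 (adjusted p = 0.0127) and -0.63 (adjusted p = 0.0256). Perp, a desmosomal membrane protein needed for p53-dependent death in some cells, had 4.58, 4.73 and 4.65 on the knock-in arrays and 4.40, 4.40 and 4.51 on the wild type arrays, groups that did not overlap, and its difference of 0.22 (adjusted p = 0.305) was not called. Both probes of Eda2r, a receptor of the tumour necrosis factor family, were not well above background on any array. Without the filter its brighter probe was called higher, at 1.70 (SE 0.27, adjusted p = 0.0148). In that setting the median difference of all genes was 0.21. Bik and Casp1, also well above background on no array, differed by 0.95 and 0.84 and were not called. The part of background in the Eda2r call was not tested.

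The calls of Trp53inp1 and Sesn1 were lost on leaving out single arrays. Trp53inp1 was not called without knock-in array 1, 2 or 4 or wild type array 1 or 2 (adjusted p from 0.0676 to 0.0924), and Sesn1 not without knock-in array 2 or wild type array 1 or 2 (adjusted p from 0.0522 to 0.0758). With slides as a random block neither passed (adjusted p = 0.187 for Trp53inp1 and 0.147 for Sesn1), nor with normexp background correction (adjusted p = 0.131 and 0.130) or with no filter on dim probes (adjusted p = 0.0703 and 0.0648). Median scaling also ended the call of Sesn1 (adjusted p = 0.0727).

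**Figure D2:**
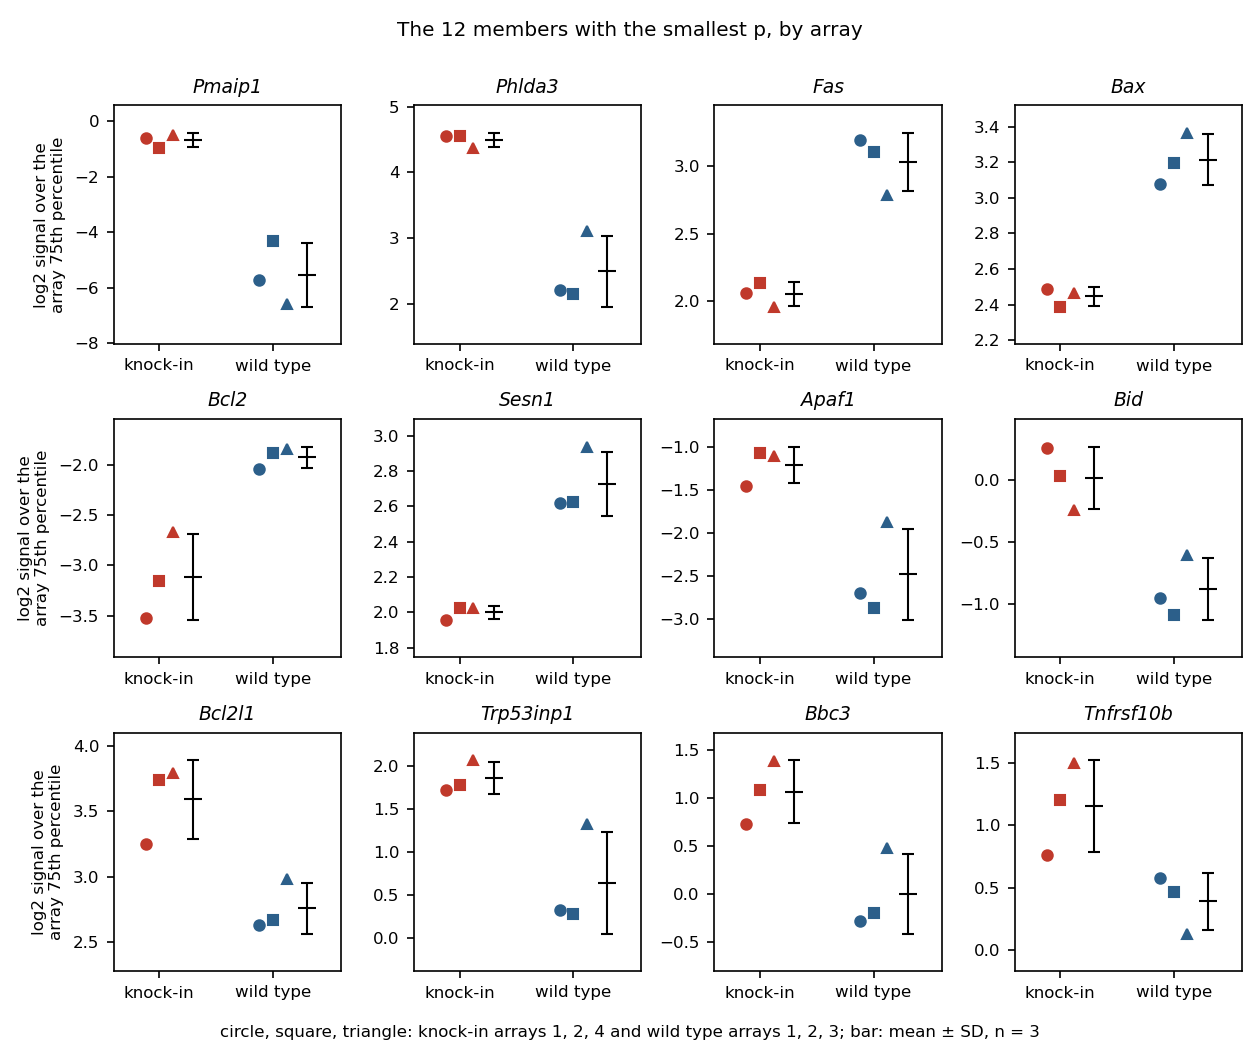
Log2 signal relative to the array's 75th percentile (vertical axes, which differ between panels) of the 12 members with the smallest p, for knock-in and wild type arrays, with the mean and SD beside the points. The genotypes do not overlap in any panel, and wild type array 3 (triangle) lies nearest to the knock-in arrays for Phlda3, Fas, Apaf1, Bid, Bcl2l1, Trp53inp1 and Bbc3.

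Of 5 BH3-only genes tested, whose products start the mitochondrial pathway, Pmaip1, Bbc3 and Bid rose and none fell, while 13.3% of all genes were called higher. Pmaip1 had passed the filter only through the knock-in arrays where it was high. Pmaip1, which encodes NOXA, had signals of -0.58, -0.94 and -0.48 on knock-in arrays 1, 2 and 4, set against -5.71, -4.31 and -6.57 on wild type arrays 1, 2 and 3. It was well above background on all knock-in arrays and on no wild type array, so that only a bound can be given. With the reported processing the knock-in lenses had at least 10.4-fold more Pmaip1 signal. The limma adjusted p of Pmaip1, 0.00120, belongs to the fitted difference and does not test the bound. The bound takes, for each wild type array, the higher of the gene's own signal and the lowest signal of any probe well above background. Pmaip1 stayed past the threshold in 14 of 15 alternatives and not with normexp background correction, where the difference was 1.60 (adjusted p = 0.0640). That difference lies below the bound, so the bound depends on the processing. Bbc3, which encodes PUMA, had 0.73, 1.08 and 1.38 on the knock-in arrays and -0.27, -0.19 and 0.48 on the wild type arrays. These groups did not overlap, and the rise was 1.06 (SE 0.27, adjusted p = 0.0283).

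Bid, the link from death receptors to mitochondria, had 0.26, 0.03 and -0.24 in the knock-in lenses, against -0.95, -1.09 and -0.60 on the wild type arrays. All knock-in arrays were higher, by 0.90 on average (SE 0.21, adjusted p = 0.0201). Bad, a BH3-only protein inactivated by growth factor signalling, had 1.71, 1.77 and 1.60 on the knock-in arrays and 1.14, 1.18 and 1.66 on the wild type arrays. Wild type array 3 lay within the knock-in range of Bad, and the difference was 0.37 (SE 0.19, adjusted p = 0.197), and by 0.53 (adjusted p = 0.0181) without wild type array 3. Bmf, which responds to loss of attachment, differed by 0.05 (adjusted p = 0.919), with knock-in array 1 at 0.02 and the other knock-in arrays at 0.97 and 1.12, on either side of 0.78, 0.66 and 0.52 on the wild type arrays. The probe of Bik was not well above background on any array, and that of Bcl2l11, which encodes BIM, was so on 1 knock-in and 1 wild type array.

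The call of Bbc3 was lost without knock-in array 2 or 4 or wild type array 1 or 2 (adjusted p from 0.0841 to 0.101), and that of Bid without knock-in array 1 or 2 or wild type array 1 or 2 (adjusted p from 0.0574 to 0.0813). With slides as a random block Pmaip1 still passed (adjusted p = 0.0159), and Bbc3 and Bid did not (adjusted p = 0.243 and 0.217). With no filter on dim probes neither Bbc3 nor Bid was called (adjusted p = 0.0752 and 0.0632). Bbc3 was also lost with normexp background correction, at 0.66 (adjusted p = 0.154), and Bid with median scaling (adjusted p = 0.0510).

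Of the genes for the pore-forming effectors, Bax fell and Bak1 was not called. Bax had signals of 2.49, 2.39 and 2.46 on knock-in arrays 1, 2 and 4, set against 3.08, 3.20 and 3.36 on wild type arrays 1, 2 and 3. The replicates of each genotype were close together and the groups well apart, and Bax fell by 0.77 log2 units (SE 0.15, adjusted p = 0.0120). Bak1, the second effector, had 0.00, -0.18 and -0.18 on the knock-in arrays and 0.12, 0.14 and 0.59 on the wild type arrays, also without overlap, but the difference of -0.40 (SE 0.19, adjusted p = 0.152) was not called. The call of Bax was lost without knock-in array 2 (adjusted p = 0.0679), without wild type array 2 (adjusted p = 0.0511), with slides as a random block (adjusted p = 0.132), with median scaling (adjusted p = 0.0539) and with no filter on dim probes (adjusted p = 0.0502).

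The pro-survival members of the BCL2 family moved in opposite directions, 1 rising and 1 falling of 4 tested. Bcl2l1, which encodes BCL-XL, had 3.25, 3.74 and 3.79 on the knock-in arrays, set against 2.63, 2.67 and 2.98 on the wild type arrays. The groups were separate and the rise was 0.83 (SE 0.21, adjusted p = 0.0268); a second probe was not well above background on any array. Bcl2, the founding member of the family, had -3.53, -3.15 and -2.66 on the knock-in arrays and -2.04, -1.88 and -1.84 on the wild type arrays. It was dim in both genotypes, with 2 of 3 knock-in arrays well above background, and fell by 1.20 log2 units (SE 0.24, adjusted p = 0.0120), so that the size is set partly against background.

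For Mcl1 and Bcl2l2 the answer depended on the probe. Mcl1, a short-lived pro-survival protein that NOXA binds, had 2.61, 2.69 and 2.69 on the knock-in arrays and 2.45, 2.45 and 2.46 on the wild type arrays with its brighter probe, a separate but small difference of 0.21 (SE 0.14, adjusted p = 0.292). Its second probe, fitted with all probes, was called higher, at 0.76 (adjusted p = 0.0161), and the mean of both gave 0.49 (adjusted p = 0.0408). Bcl2l2, which encodes BCL-W, had 3.03, 3.12 and 3.12 on the knock-in arrays and 3.37, 3.25 and 2.99 on the wild type arrays with its brighter probe. It differed by -0.11 (adjusted p = 0.655) with that probe and by -0.92 with its second probe, which was called lower (adjusted p = 0.0437). Xiap, a direct inhibitor of caspases, had 0.97, 1.75 and 2.18 on the knock-in arrays and 1.79, 1.68 and 1.99 on the wild type arrays, and its difference of -0.18 (adjusted p = 0.696) turned to 0.15 without knock-in array 1. Bcl2l1 was not called without knock-in array 2 or 4 or wild type array 1 or 2 (adjusted p from 0.0800 to 0.111), nor Bcl2 without knock-in array 2 (adjusted p = 0.0551). With slides as a random block neither was called (adjusted p = 0.266 for Bcl2l1 and 0.176 for Bcl2), and with normexp background correction the difference of Bcl2 was -0.43 (adjusted p = 0.172). Bcl2l1 was also lost with normexp (adjusted p = 0.211), median scaling (adjusted p = 0.0747) and no filter on dim probes (adjusted p = 0.0796).

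Of the death receptor genes, Fas fell and Tnfrsf10b was not called. Fas, the receptor for FAS ligand, had signals of 2.06, 2.14 and 1.96 in the knock-in lenses, against 3.20, 3.11 and 2.79 on the wild type arrays. All knock-in arrays lay below all wild type arrays, and Fas fell by 0.98 log2 units (SE 0.17, adjusted p = 0.00754). The fall was called under 15 of 16 alternatives, and not with slides as a random block (adjusted p = 0.102). Tnfrsf10b, the mouse receptor for TRAIL, had 0.77, 1.20 and 1.50 on the knock-in arrays and 0.57, 0.46 and 0.13 on the wild type arrays. These ranges did not overlap, but the difference of 0.77 (SE 0.23, adjusted p = 0.0509) lay just outside the threshold, and without knock-in array 1 it was called, at 0.96 (adjusted p = 0.0323).

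Of the apoptosome gene and the apoptotic caspases, 1 of 5 tested rose and none fell. Apaf1, the scaffold of the apoptosome, had -1.45, -1.07 and -1.11 on knock-in arrays 1, 2 and 4, set against -2.70, -2.86 and -1.87 on wild type arrays 1, 2 and 3. The groups were separate, wild type array 3 lying nearest to the knock-in arrays, and the rise was 1.27 (SE 0.28, adjusted p = 0.0184). Normexp background correction reduced it to 0.49 (adjusted p = 0.112). Casp9, the initiator caspase that the apoptosome activates, differed by -0.38 (SE 0.19, adjusted p = 0.195), with signals of 1.06, 1.47 and 1.52 on the knock-in arrays and 1.64, 1.61 and 1.93 on the wild type arrays. Casp6, an executioner caspase that cleaves lamins, had 1.00, 0.75 and 0.21 on the knock-in arrays and -0.06, -0.16 and 0.07 on the wild type arrays, separate but not called at 0.70 (SE 0.23, adjusted p = 0.0611). Leaving out knock-in array 4 gave Casp6 0.92 (adjusted p = 0.0242), and leaving out wild type array 3 gave it 0.76 (adjusted p = 0.0463).

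Casp2, an initiator caspase that the PIDD1 complex activates, and Casp8, the initiator downstream of death receptors, differed by -0.27 and 0.07 (adjusted p = 0.374 and 0.916) with overlapping groups. Casp2 had 0.56, 0.98 and 1.13 on the knock-in arrays and 1.05, 1.05 and 1.38 on the wild type arrays, knock-in array 1 being the lowest. Casp8 ranged from -3.11 to -1.93 on the knock-in arrays and from -3.46 to -2.28 on the wild type arrays. The probe of Casp1, the inflammatory caspase that matures interleukin-1β, was not well above background on any array. Apaf1 was not called without knock-in array 2 or 4 or wild type array 1 or 2 (adjusted p from 0.0572 to 0.0758), nor with slides as a random block (adjusted p = 0.156) or with no filter on dim probes (adjusted p = 0.0521).

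Pro-survival members were set against pro-death members by their medians. The 5 pro-survival genes were Bcl2, Bcl2l1, Bcl2l2, Mcl1 and Xiap, of which 1 rose and 1 fell, with a median difference of -0.11. Of 17 pro-death genes, the BH3-only genes, Bax, Bak1, Fas, Tnfrsf10b, Apaf1, Perp and the 4 apoptotic caspases, 15 were tested, 4 rose and 2 fell, with a median of 0.22, beside -0.04 for all genes. Pmaip1 among these rises passed the filter only through the knock-in arrays, and Bcl2 only through the wild type arrays. With probes well above background on all arrays, which leaves out both, the pro-death median was 0.14 and the pro-survival median 0.05, beside 0.02 for all genes. To see each array, every gene was centred on its mean over the 6 arrays. The median of the pro-survival genes was then -0.11, 0.02 and 0.13 on knock-in arrays 1, 2 and 4, set against 0.06, -0.04 and -0.09 on wild type arrays 1, 2 and 3. That of the pro-death genes was 0.03, 0.26 and 0.10 on the knock-in arrays, set against -0.15, -0.14 and -0.03 on the wild type arrays, all knock-in arrays lying above all wild type arrays.

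The pro-survival median minus the pro-death median, which does not depend on how arrays are scaled to each other, was -0.15, -0.23 and 0.03 on the knock-in arrays and 0.20, 0.10 and -0.06 on the wild type arrays. Knock-in array 4 lay within the wild type range and wild type array 3 within the knock-in range, so the genotypes overlapped in this balance. No test was made, because the members of both sets were chosen and not sampled. Without knock-in array 1 the pro-survival median was 0.15 and the pro-death median 0.36.

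**Figure D3:**
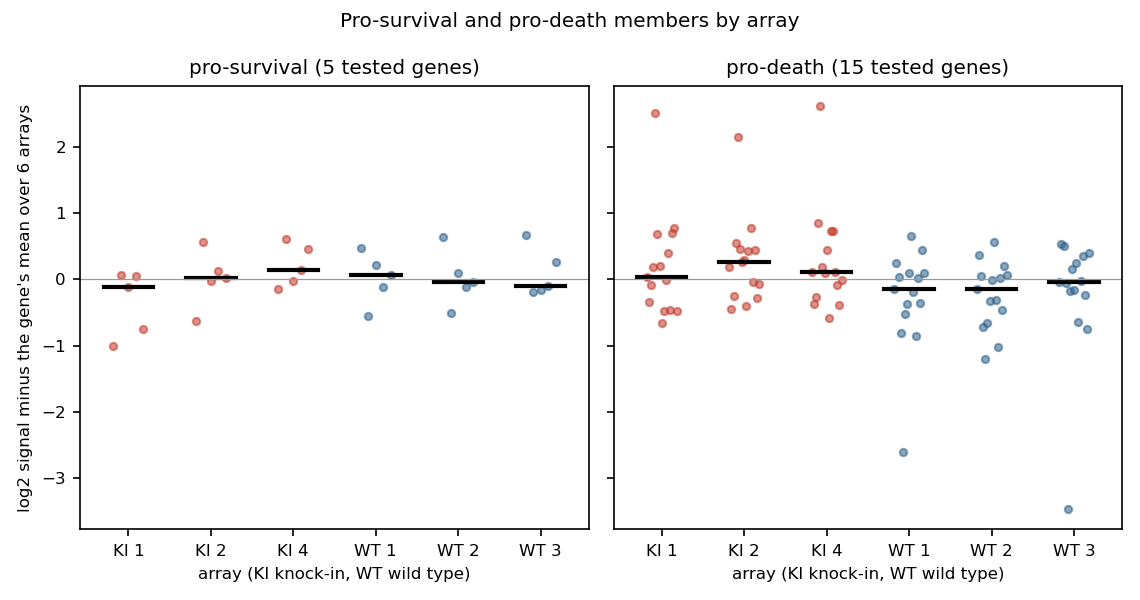
Log2 signal of each tested pro-survival (left) and pro-death (right) gene minus that gene's mean over the 6 arrays, by array, with a black bar at the median. The pro-survival medians of the genotypes overlap, between -0.11 and 0.13 on knock-in and between -0.09 and 0.06 on the wild type arrays, and the point farthest from 0 on each array at right is Pmaip1.

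Other genes of these pathways formed a list of 93 outside the members, chosen with earlier results of these data known. Its counts are therefore not independent of those results. Of 73 tested, 22 rose and 11 fell, beside 13.3% higher and 12.6% lower over all genes. With probes well above background on all arrays 18 rose and 10 fell of 67. On leaving out 1 array the rises numbered from 10 (without knock-in array 2 or wild type array 2) to 27 (without wild type array 3) and the falls from 5 (without knock-in array 1, 2 or 4 or wild type array 1) to 18 (without wild type array 3). They were 6 and 1 with slides as a random block and 7 and 3 with normexp background correction. Other p53 targets made up 12 of the 22 rises, with 12 higher and 2 lower of 24 tested and a median difference of 0.71, beside -0.04 over all genes. Of these rises, Polk, named after its values were seen, passed the filter only through the knock-in arrays. With probes well above background on all arrays this list had 11 higher and 2 lower of 23, with a median of 0.69, beside 0.02 for all genes. With normexp background correction it had 7 higher and 2 lower of 24, with a median of 0.42, beside 0.03 for all genes. Gdf15, a stress-induced cytokine, had signals of 3.69, 4.07 and 3.87 in the knock-in lenses, against -0.21, -0.26 and -0.11 on the wild type arrays. The groups stood far apart with little spread, and the rise was 4.07 (SE 0.16, adjusted p = 3.79e-05). Plk2, a polo-like kinase induced by cell stress, had 1.48, 1.61 and 1.72 on the knock-in arrays and -2.48, -3.06 and -3.74 on the wild type arrays. It rose by 4.70 (SE 0.31, adjusted p = 0.000234), the related kinase Plk3 by 3.05 (SE 0.19, adjusted p = 0.000197), and the phosphatase Ptp4a3 by 2.31 (SE 0.17, adjusted p = 0.000305). These 4 were called under all alternatives run, slides as a random block included. The falls among other p53 targets, named after their values were seen, were Ddb2, a sensor of ultraviolet damage, at -0.89 (adjusted p = 0.0340), and Sesn2, a sestrin like Sesn1, at -0.98 (adjusted p = 0.0347). Both were lost without knock-in array 1, 2 or 4 or wild type array 1, and Sesn2 also without wild type array 2 (adjusted p from 0.0621 to 0.119). With slides as a random block 5 other p53 targets were called higher and none lower, and on leaving out 1 array between 7 and 13 were called higher, 7 without knock-in array 2 or wild type array 1 or 2.

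**Figure D4:**
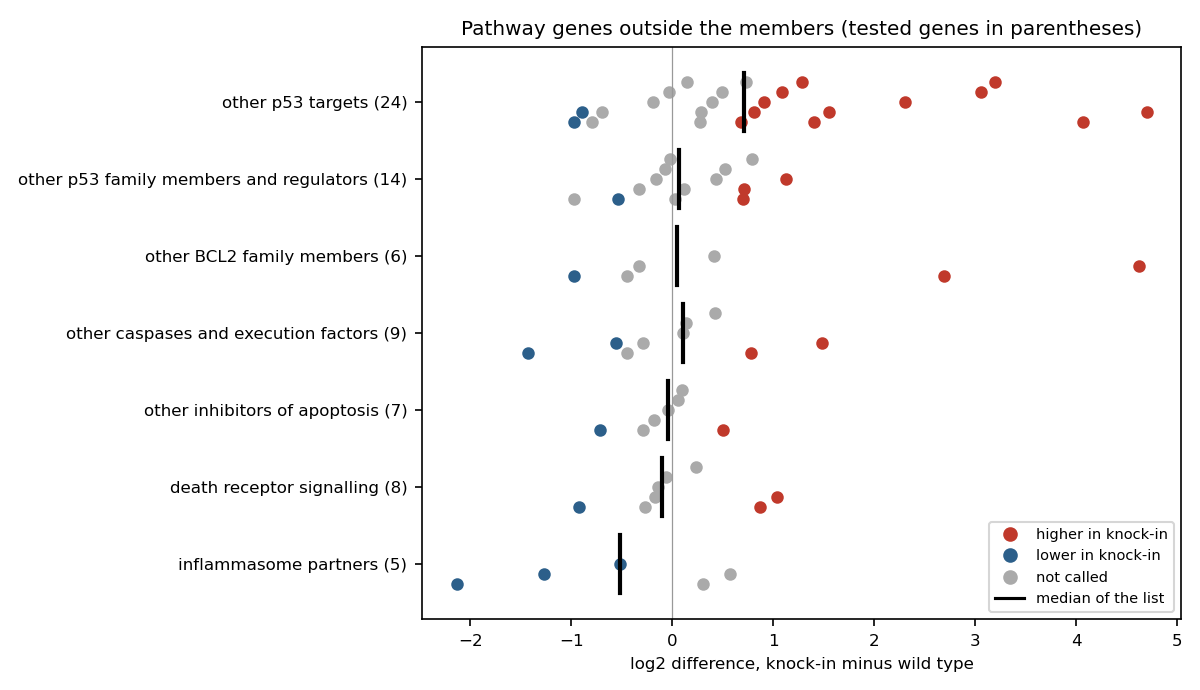
Log2 difference, knock-in minus wild type (horizontal axis), of the 73 tested pathway genes outside the members, by list, with the list's median as a black bar. The median of other p53 targets lies at 0.71, and those of the remaining lists lie between -0.51 and 0.10.

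The remaining lists are given beside the same 13.3% and 12.6% of all genes, and at their sizes few calls separate them from those shares. Regulators and relatives of p53 had 3 higher and 1 lower of 14 tested, other BCL2 family members 2 and 1 of 6, other caspases and execution factors 2 and 2 of 9, other inhibitors of apoptosis 1 and 1 of 7, and death receptor signalling 2 and 1 of 8. Of the rises among other caspases and execution factors, Dffb, named after its values were seen, passed the filter only through the knock-in arrays. With probes well above background on all arrays that list had 1 higher and 2 lower of 7. The list of inhibitors of apoptosis did not hold Birc7, a further inhibitor, which was counted among the lens fibre markers. Birc7, named after its values were seen, was called lower, at -5.24 (SE 0.24, adjusted p = 5.64e-05). Both rises among other BCL2 family members, Bok and Bcl2a1d, named after their values were seen, passed the filter only through the knock-in arrays; with probes well above background on all arrays that list had 0 higher and 1 lower of 4. Bcl2l13, a mitochondrial BCL2 relative, fell by 0.97 (SE 0.17, adjusted p = 0.00754).

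Partners of caspase-1 in the inflammasome had 3 lower and none higher of 5 tested, with a median difference of -0.51. Of the 3, Il1b passed the filter only through the wild type arrays, where it was high. With probes well above background on all arrays, 2 were lower and none higher of 4, with a median difference of -0.10. Il1b, interleukin-1β, was well above background on all wild type arrays and on no knock-in array. With the reported processing it was at least 1.52-fold lower in knock-in lenses. The limma adjusted p of Il1b, 0.00190, belongs to the fitted difference and does not test that bound. Gsdmd, the pore-forming protein of pyroptosis, had -1.96, -2.23 and -2.66 on the knock-in arrays and lay between -1.08 and -0.96 on the wild type arrays, and fell by 1.27 (SE 0.21, adjusted p = 0.00620). The third was Il18, named after its value was seen, at -0.51 (adjusted p = 0.0451), a call lost without knock-in array 1, 2 or 4 or wild type array 1 or 2 (adjusted p from 0.0792 to 0.142). With slides as a random block none of the inflammasome genes was called (adjusted p = 0.0530 for Il1b, 0.113 for Gsdmd and 0.311 for Il18), nor was Bcl2l13 (adjusted p = 0.125). With normexp background correction Il1b differed by -0.34 (adjusted p = 0.494), Gsdmd by -0.61 (adjusted p = 0.0586) and Bcl2l13 by -0.55 (adjusted p = 0.0522). The summed leukocyte markers came to 19.3, 9.94 and 11.4 on knock-in arrays 1, 2 and 4 and 38.3, 41.4 and 12.9 on wild type arrays 1, 2 and 3, low on the knock-in arrays and also on wild type array 3. Without Itgam, which was called lower and, like the next 2 genes, is named after its values were seen, the sum came to 9.24, 3.87 and 3.51 on the knock-in arrays and 3.49, 4.46 and 1.53 on the wild type arrays. Tyrobp and C1qc were called higher, at 4.36 and 4.39, and the median difference of the 7 leukocyte markers tested was 0.79, so these markers did not move one way. Their part in the falls of inflammasome genes was not tested.

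The count of called members depended on the arrays. All 11 called members were also called without wild type array 3, where 10 members were higher and 6 lower and 43.5% of all genes were called. With slides as a random block only Phlda3 and Pmaip1 of the 11 were called, beside 4.86% of all genes. Leaving out knock-in array 2 kept 3 of the 11 (Phlda3, Pmaip1 and Fas), and leaving out wild type array 2 kept 4.

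**Figure D5:**
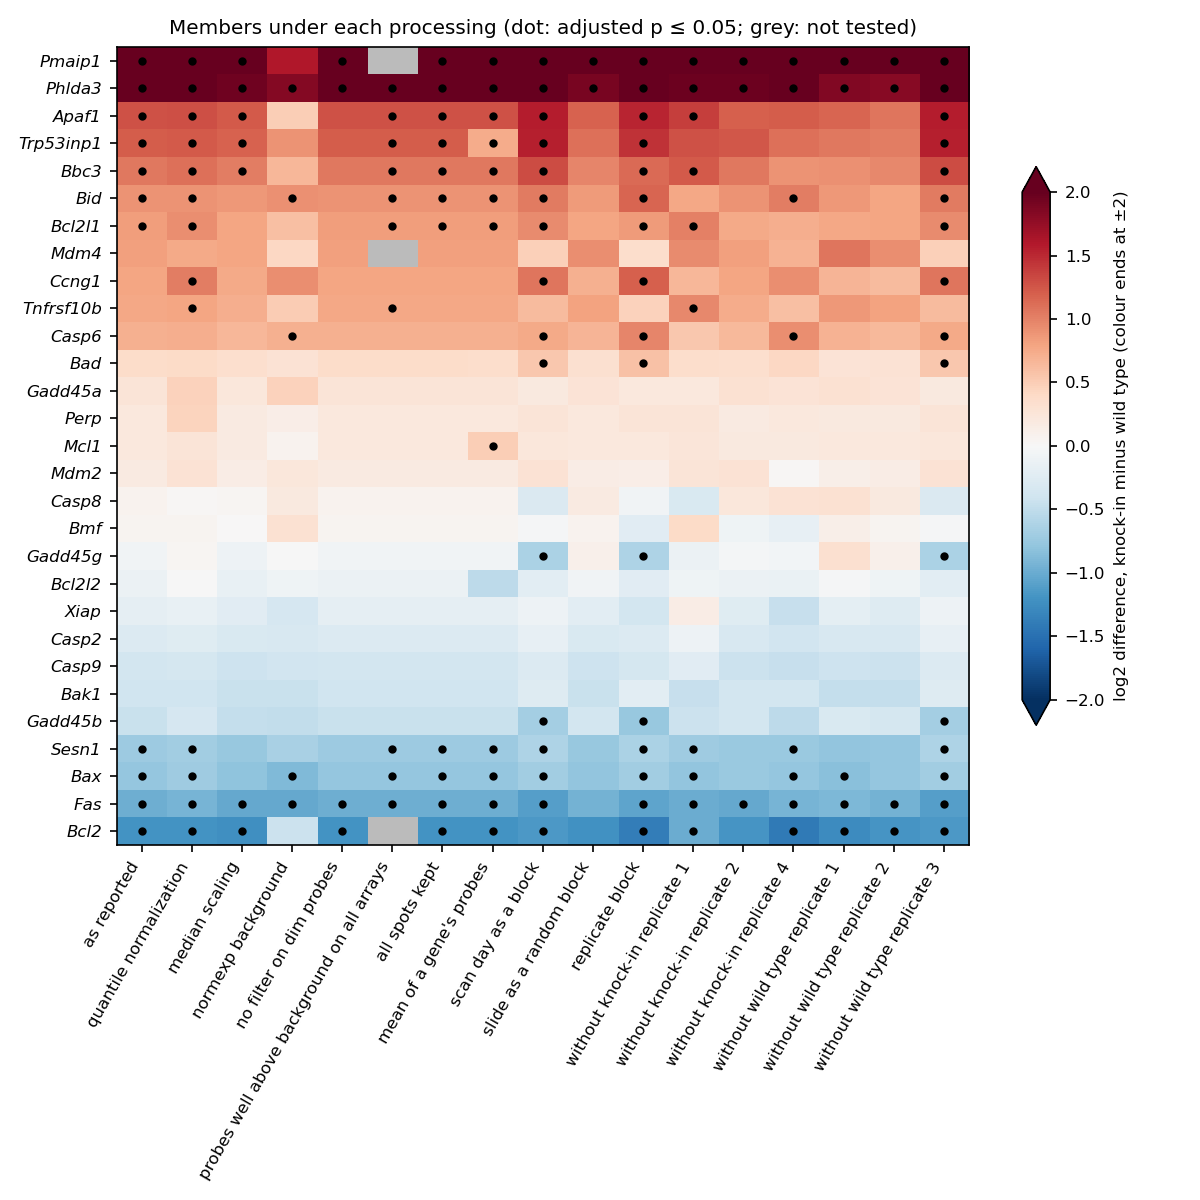
Log2 difference, knock-in minus wild type, of each tested member (rows) under each way of processing the arrays (columns), as colour from -2 to 2, with a dot where the adjusted p was at most 0.05. Phlda3 carries a dot in every column, and Fas in every column except slides as a random block.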

How the data were processed

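Lens RNA was hybridised to 6 single-colour Agilent arrays. Each deposited file is 1 array's scanner output, and its processed signal is an intensity from which Agilent Feature Extraction had subtracted the background (version 11.0.1.1 per the file headers, 9.1 per the submitters' processing notes). The sources used here do not say whether the authors scaled arrays to each other. From the log2 processed signal of 43020 non-control spots the 75th percentile of each array was subtracted, spots with an outlier mark were dropped, and repeated spots were averaged per probe. Probes well above background (at least 50% of their spots) on all arrays of 1 genotype were kept, 21076 of 39429. Accessions were named through RefSeq genes of GRCm38.p6 (27234 probes, 20659 symbols), and the brightest probe represented a gene; genes with no unflagged spot on an array were left out. Knock-in and wild type were compared with limma 3.58.1 in R 4.3.3 (lmFit, eBayes, 4 residual degrees of freedom, Benjamini-Hochberg). The procedure was also run on simulated data with 200 changed genes, independent arrays and no slide effect. That run cannot show how slides bear on the calls. An exact permutation test of 3 against 3 arrays cannot go below p = 0.1.

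Precision is limited by the number of arrays, and the p-values reflect only how arrays vary, possibly for technical reasons. No arrays of a genotype held identical values. Slides were taken as arrays scanned at the same time per the file headers. Alternatives were quantile and median scaling, normexp background correction (offset 50, on median spot signals because mean signals were not used here), other filters, all spots, the mean of a gene's probes, scan day as a block, slides as a random block (consensus correlation 0.56), a replicate block and leaving out each array, with the tested genes and probes kept in the blocks and leave-outs. Scan day as a block gave the same differences and calls as leaving out wild type array 3, and keeping all spots gave nearly the reported values. Counts of alternatives are therefore not counts of distinct fits. Members and gene lists were chosen with earlier results of these data known. All members with a probe are named, with the 4 smallest p in each direction among other pathway genes, of which 1 is not reported here; other names are said to have been chosen after their values were seen. Roles of genes are background and were not tested.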

Additional observations from a re-analysis of the deposited data

How the results depend on the processing

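All 29 tested members kept their direction under all alternatives run except Gadd45g, Bmf, Casp8 and Xiap, none of which was called in the reported comparison. Gadd45g turned to 0.041 with quantile normalization, 0.11 with slides as a random block, 0.32 on leaving out wild type array 1 and 0.11 on leaving out wild type array 2, and ranged from -0.63 to 0.32 on leaving out 1 array. Bmf turned to -0.019 with scan day as a block or without wild type replicate 3, -0.08 without knock-in replicate 2, -0.16 without knock-in replicate 4 and -0.23 with the replicate block. Casp8 turned to -0.28 with scan day as a block or without wild type replicate 3, -0.30 without knock-in replicate 1 and -0.070 with the replicate block, and Xiap to 0.15 without knock-in replicate 1; on leaving out 1 array Bmf ranged from -0.16 to 0.39, Casp8 from -0.30 to 0.31 and Xiap from -0.46 to 0.15. Called genes numbered 1433 with normexp, 2002 with no filter on dim probes, 621 with slides as a random block, 5564 with scan day as a block and 5444 with the replicate block, against 3311 as reported, and between 1528 and 5564 on leaving out 1 array. Members called higher numbered 3 with normexp, 3 with no filter and 2 with slides as a random block, against 7, and between 2 and 10 on leaving out 1 array. Members called lower numbered 2 with median scaling, 2 with normexp and 0 with slides as a random block, against 4, and between 1 and 6 on leaving out 1 array. The share of higher calls was 51.3% as reported and 40.9% with median scaling. The pro-survival median was 0.052 with probes well above background on all arrays and -0.23 with the replicate block, and from -0.13 to 0.15 on leaving out 1 array; the pro-death median was 0.39 with quantile normalization and 0.34 with no filter, and from 0.20 to 0.36 on leaving out 1 array. Fitting replicate numbers 1 and 2 as a block kept all 11 calls and added 5. The labels do not say that a number is shared between genotypes. Same-numbered arrays deviated from their group means with correlations of 0.17 and -0.22. The deviations of wild type arrays 1 and 2 ran against those of wild type array 3 (correlations -0.89 and -0.93). These values therefore cannot decide whether the numbers pair the arrays. That block takes its spread from arrays 1 and 2 of each genotype alone, the scan day block leaves out wild type array 3, and the random block learns how slides of 1 genotype differ from that array alone. The causes of the other changes were not tested. Signal over background limits Trp53, Eda2r, Bik, Bcl2l11 and Casp1, which were compared only with no filter on dim probes, where Trp53 was called lower and Eda2r higher, and Pmaip1, Bcl2, Mdm4 and Il1b, whose differences rest partly on dim signals.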
